A study of Mus musculus with 6 samples.

Results

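The genes described here encode 10 proteins of the acute-phase response and of the S100 alarmin pair: the serum amyloid A genes *Saa1*, *Saa2* and *Saa3*, the orosomucoids *Orm1* and *Orm2*, haptoglobin (*Hp*), the serine protease inhibitor *Serpina3n*, lipocalin 2 (*Lcn2*), and *S100a8* and *S100a9*. They were taken as a list of names, and each was read from its probeset annotated to that gene symbol alone. All 10 had exactly 1 such probeset, of 19937 genes with one. Their RNA was measured in gonadal white adipose tissue (GWAT) of 4-month-old male mice kept on chow diet, on 6 whole-transcript microarrays that read many probes along each transcript. 3 arrays held GWAT of *ob/ob/Fsp27-/-* mice, which lack both leptin and the lipid droplet protein Fsp27, and 3 held GWAT of *ob/ob* mice, which lack leptin alone, so leptin deficiency was shared by every sample. Per the study's methods the mice were C57BL/6J, the double mutants came from crossing Fsp27-null mice with leptin-deficient mice, and each array held a pool of RNA from several mice of 1 genotype. The Fsp27 deletion was present in the whole animal and not only in adipocytes.

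Acute-phase proteins are secreted into plasma when interleukin-6, interleukin-1 and tumour necrosis factor act on a cell, mainly through the transcription factors STAT3, NF-kB and the C/EBP family. The liver is their main source, but white adipocytes also make haptoglobin, orosomucoids, lipocalin 2 and serum amyloid A3, and obesity is known to raise several of them in fat. S100A8 and S100A9 form a calcium-binding heterodimer called calprotectin that neutrophils and monocytes hold in their cytosol and release as an alarm signal.

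The values are log2 intensities summarised by RMA (robust multi-array average), in which a difference of 1 is a doubling of signal. Over all probesets and arrays they ran between 2.39 and 13.57 with a median of 6.07, and 10% of them lay below 3.62. The median of a single array was between 6.02 and 6.10. A gene was called changed when limma's moderated test, fitted to all 22961 probesets with a gene symbol, gave a Benjamini-Hochberg adjusted p under 0.05 and the genotypes differed by at least 0.5 on the log2 scale. Fold changes are *ob/ob/Fsp27-/-* over *ob/ob* throughout. *Cidec*, which encodes Fsp27, read 11.34, 11.51 and 11.53 in *ob/ob/Fsp27-/-* arrays, against 11.49, 11.78 and 11.98 in *ob/ob* arrays, and these overlapped (log2 fold change -0.29, adjusted p = 0.157 by limma). The place of its probes relative to the deleted part is not given in the sources used here, so *Cidec* does not check the genotype labels. Array 2 of both genotypes stood apart in liver genes and *ob/ob* array 1 in adipocyte genes. Calls of the 10 genes that were lost or gained without these arrays are given in the text. Other changes in value without these arrays are given for some of the genes and not for all.

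Of the 10 genes, *Saa3* was lower in *ob/ob/Fsp27-/-* GWAT, *S100a8* was higher, and the other 8 did not pass. The 2 that passed are 20% of the list, and 20.4% of all genes passed the same test, 9.58% as higher and 10.8% as lower, so the share called in the list was close to that over all genes. The arrays of the genotypes did not overlap for 3 of the 10 genes (*Saa3*, *S100a8* and *Hp*), whereas they did not overlap for 46.0% of all genes. The median log2 fold change was 0.14 over the 10 genes and 0.06 over all genes. The 2 calls ran in opposite directions, and the genes are described by family.

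**Figure D1:**
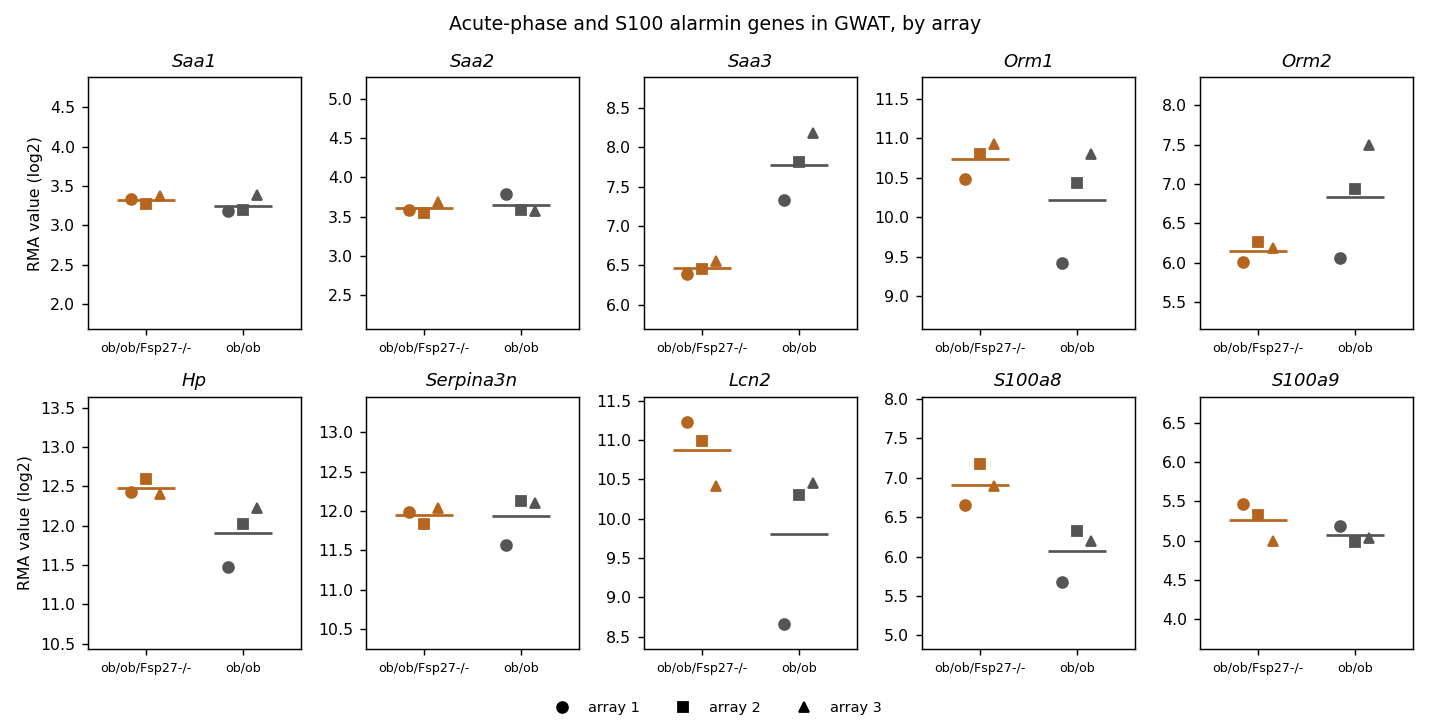
Log2 RMA value of each of the 10 genes in each of the 6 GWAT arrays, with ob/ob/Fsp27-/- on the left and ob/ob on the right of every panel; points are single arrays (3 per genotype), bars are genotype means, and every panel spans the same height on the log2 axis. The groups are apart for Saa3, Hp and S100a8, and ob/ob array 1 lies far below the other arrays for Lcn2, Orm1 and Hp.

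The serum amyloid A genes lie side by side in the mouse genome. *Saa1* and *Saa2* encode the plasma forms, apolipoproteins of high-density lipoprotein that the liver makes in large amounts in inflammation, and *Saa3* encodes a local form made by macrophages and adipocytes. Their promoters, from 250 bases before to 50 bases after the RefSeq start site in GRCm38.p6, are shown because the copies are close to identical in *Saa1* and *Saa2* and diverged in *Saa3*. Capitals mark matches to TTNNGNAA, the core of the C/EBP site, on either strand. The windows are chr7:46742931-46743230 on the minus strand for *Saa1*, chr7:46751583-46751882 on the plus strand for *Saa2* and chr7:46715627-46715926 on the minus strand for *Saa3*.
Saa1: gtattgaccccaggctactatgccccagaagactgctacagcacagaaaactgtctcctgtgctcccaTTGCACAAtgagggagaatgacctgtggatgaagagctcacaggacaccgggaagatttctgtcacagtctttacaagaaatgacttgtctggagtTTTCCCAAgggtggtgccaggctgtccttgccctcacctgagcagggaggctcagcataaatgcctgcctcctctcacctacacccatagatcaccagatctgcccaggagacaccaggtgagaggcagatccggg
Saa2: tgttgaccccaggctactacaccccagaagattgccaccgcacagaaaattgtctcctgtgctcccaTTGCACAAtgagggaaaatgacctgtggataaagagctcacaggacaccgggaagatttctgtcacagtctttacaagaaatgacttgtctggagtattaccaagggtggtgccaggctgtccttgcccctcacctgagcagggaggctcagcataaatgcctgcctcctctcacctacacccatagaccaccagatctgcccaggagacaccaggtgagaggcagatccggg
Saa3: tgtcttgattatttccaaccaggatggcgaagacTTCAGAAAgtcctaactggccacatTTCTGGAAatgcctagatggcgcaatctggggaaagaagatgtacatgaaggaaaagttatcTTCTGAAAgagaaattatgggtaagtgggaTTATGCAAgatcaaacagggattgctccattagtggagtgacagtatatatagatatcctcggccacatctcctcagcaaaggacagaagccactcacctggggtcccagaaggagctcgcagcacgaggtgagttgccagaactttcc
Aligned to each other, the *Saa1* and *Saa2* promoters were identical at 287 of 301 positions (95.4%), and *Saa1* and *Saa3* at 192 of 354 (54.2%). *Saa1* held 2 C/EBP matches, *Saa2* held 1 and *Saa3* held 4, of which the nearest to the start site, TTATGCAA, began at -99. A C/EBP match is common, since 40.7% of 32851 mouse promoters of the same length hold one. All 8 promoters of these genes that were matched held one. The near-identical *Saa1* and *Saa2* are among them, and the count was not tested. The STAT motif TTCNNNGAA was in 8.30% of all promoters and the NF-kB consensus in 8.46%, and neither was found in any of the 8 promoters of these genes that the RefSeq table holds. A match says only that the letters are there.

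*Saa3* fell in *ob/ob/Fsp27-/-* GWAT to 0.402 times its *ob/ob* level. It read 6.39, 6.45 and 6.56 in the *ob/ob/Fsp27-/-* arrays, against 7.34, 7.81 and 8.19 in the *ob/ob* arrays. All *ob/ob/Fsp27-/-* arrays lay below all *ob/ob* arrays, and the *ob/ob* arrays were spread over a wider range. The means were 6.46 ± 0.085 in *ob/ob/Fsp27-/-* and 7.78 ± 0.43 in *ob/ob* (SD, n = 3 arrays each), a log2 fold change of -1.31 (95% interval -1.79 to -0.84) with an adjusted p = 0.00295 by limma. *Saa3* passed with any one array left out (log2 fold change -1.54 to -1.11), and missed the threshold without array 2 of both genotypes (-1.29, adjusted p = 0.0670 by limma). Between genotypes, macrophage markers moved the same way: 17 of 19 measured markers were lower and none was higher by limma (0 also at an unadjusted p under 0.05). Their list mean was 7.86, 8.06 and 7.97 in *ob/ob/Fsp27-/-* arrays, against 10.10, 10.015 and 9.94 in *ob/ob* arrays. Among the *ob/ob* arrays this mean fell slightly from array 1 to array 3, whereas *Saa3* rose. *Adgre1* (F4/80) had a log2 fold change of -3.21 (adjusted p = 7.82e-06) and *Cd68*, a lysosomal protein of macrophages, of -2.68 (adjusted p = 4.06e-05), both by limma. In whole tissue, fewer cells of a type and less RNA per cell cannot be told apart, and the part of macrophages in the *Saa3* difference was not tested.

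*Saa1* and *Saa2* sat at the low end of the arrays in both genotypes. *Saa1* read 3.33, 3.27 and 3.37 in *ob/ob/Fsp27-/-* arrays, against 3.18, 3.20 and 3.38 in *ob/ob* arrays. *Saa2* read 3.59, 3.55 and 3.69 in *ob/ob/Fsp27-/-* arrays, against 3.79, 3.58 and 3.57 in *ob/ob* arrays. The genotypes overlapped for both genes, and neither was called (*Saa1* log2 fold change 0.07, 95% interval -0.13 to 0.28, adjusted p = 0.574; *Saa2* -0.04, 95% interval -0.26 to 0.18, adjusted p = 0.792, by limma). Differences are compressed at signals this low, so these intervals hold for the array signal and not for the RNA. *Saa1* and *Saa2* are near-identical copies, and how far their probes share signal is not given in the sources used here. *Saa4*, the constitutively expressed copy between *Saa3* and *Saa1*, read 3.95 to 4.20 in *ob/ob/Fsp27-/-* arrays and 3.83 to 4.33 in *ob/ob* arrays (log2 fold change 0.05, adjusted p = 0.827 by limma).

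The orosomucoids are lipocalins that bind drugs and lipids in plasma, and their 3 genes *Orm1*, *Orm3* and *Orm2* neighbour each other. The mean of *Orm1* was above its *ob/ob* mean and that of *Orm2* below it, and neither passed the test. The *Orm2* promoter (chr4:63362199-63362498, plus strand) and that of *Orm3* (chr4:63355908-63356207, plus strand) are shown, with the same capitals, because both carry a C/EBP match at nearly the same place and *Orm2* carries 1 more. No *Orm1* promoter was matched.
Orm2: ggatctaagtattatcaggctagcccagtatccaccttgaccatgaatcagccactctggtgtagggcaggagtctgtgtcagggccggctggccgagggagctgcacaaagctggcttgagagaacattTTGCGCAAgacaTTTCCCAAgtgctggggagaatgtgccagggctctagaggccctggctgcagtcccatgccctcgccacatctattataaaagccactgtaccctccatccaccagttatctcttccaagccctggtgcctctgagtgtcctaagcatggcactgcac
Orm3: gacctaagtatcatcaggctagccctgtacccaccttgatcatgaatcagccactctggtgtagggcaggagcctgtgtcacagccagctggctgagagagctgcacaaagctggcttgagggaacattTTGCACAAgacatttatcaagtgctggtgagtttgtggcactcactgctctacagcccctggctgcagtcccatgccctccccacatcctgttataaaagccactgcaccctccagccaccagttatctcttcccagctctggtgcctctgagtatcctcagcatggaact
The 2 sequences were identical at 264 of 305 aligned positions (86.6%). The match TTGCGCAA at -120 in *Orm2* reads the same on both strands and its second match, TTTCCCAA, began at -108. *Orm3* held TTGCACAA at -121.

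*Orm1* read 10.48, 10.80 and 10.93 in *ob/ob/Fsp27-/-* arrays, against 9.42, 10.43 and 10.80 in *ob/ob* arrays. The groups overlapped, and *ob/ob* array 1 was a full log2 unit below the next array. The means were 10.74 ± 0.23 in *ob/ob/Fsp27-/-* and 10.21 ± 0.71 in *ob/ob* (SD, n = 3 each), with a log2 fold change of 0.52 (95% interval -0.26 to 1.30, adjusted p = 0.295 by limma). Without *ob/ob* array 1 the log2 fold change was 0.12. *Orm2* read 6.01, 6.27 and 6.18 in *ob/ob/Fsp27-/-* arrays, against 6.06, 6.94 and 7.50 in *ob/ob* arrays. Only *ob/ob* array 1 fell within the *ob/ob/Fsp27-/-* range, and the log2 fold change was -0.68 (95% interval -1.45 to 0.09, adjusted p = 0.174 by limma). Which *ob/ob* array was kept decided the *Orm2* value: without *ob/ob* array 1 it passed (log2 fold change -1.06, adjusted p = 0.00753 by limma), and without *ob/ob* array 3 the log2 fold change was -0.34 (adjusted p = 0.381). *Orm3* read 5.32, 6.08 and 6.21 in *ob/ob/Fsp27-/-* arrays, against 4.44, 4.93 and 5.39 in *ob/ob* arrays. Its *ob/ob/Fsp27-/-* and *ob/ob* ranges overlapped only between *ob/ob/Fsp27-/-* array 1 and *ob/ob* array 3, and it narrowly missed the threshold (log2 fold change 0.95, SE 0.30, adjusted p = 0.0531 by limma), which *Orm3* passed without *ob/ob/Fsp27-/-* array 1 (1.22, adjusted p = 0.0173) or *ob/ob* array 3 (1.18, adjusted p = 0.0269). The 3 genes are close copies, so the split of signal between them is uncertain.

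The difference between 2 related genes within an array cancels a shift of equal size in both, and not a shift of unequal size. *Orm1* minus *Orm2* was 4.47, 4.53 and 4.75 in *ob/ob/Fsp27-/-* arrays, against 3.36, 3.49 and 3.30 in *ob/ob* arrays. These groups did not overlap, and unlike those of the single genes the *ob/ob* values were close together (4.58 ± 0.15 in *ob/ob/Fsp27-/-* and 3.38 ± 0.10 in *ob/ob*, SD, n = 3 each). The difference of the log2 fold changes was 1.20, with an exact two-sided permutation p = 0.1, the smallest that 3 against 3 arrays can give, and 0.2 after adjustment over the 4 pairs examined. *S100a8* minus *S100a9* gave 0.64 with overlapping groups (exact permutation p = 0.2, adjusted 0.267). No pair could reach 0.05 in this design. The other 2 pairs set *Saa1* against *Saa2* and *Saa3*. Since *Saa1* was at the low end of the arrays, they hold no comparison of 2 genes, and the difference of 1.39 for *Saa1* minus *Saa3* restates the change of *Saa3*.

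**Figure D2:**
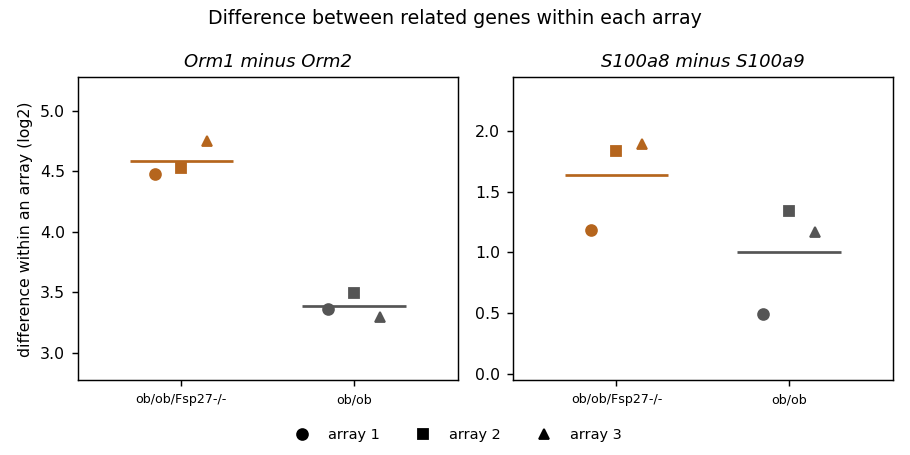
Difference in log2 RMA value between 2 related genes within each array, with ob/ob/Fsp27-/- on the left and ob/ob on the right; points are single arrays (3 per genotype) and bars are means. Orm1 minus Orm2 separates the genotypes without overlap, by 1.20 on the log2 scale, and S100a8 minus S100a9 overlaps.

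*Hp* encodes haptoglobin, which binds free haemoglobin in plasma and is a known product of adipocytes. Its probeset read 12.43, 12.60 and 12.40 in *ob/ob/Fsp27-/-* arrays, against 11.47, 12.03 and 12.23 in *ob/ob* arrays. The groups did not overlap, although the gap between the lowest *ob/ob/Fsp27-/-* array and the highest *ob/ob* array was small. The log2 fold change was 0.57 (95% interval 0.13 to 1.01), and its adjusted p of 0.0602 by limma missed the threshold, which it passed under 2 other treatments of the values (adjusted p = 0.0373 when only probesets above the median were tested, and 0.0460 when arrays were centred on their medians). Without *ob/ob* array 1 the log2 fold change of *Hp* was 0.35 (adjusted p = 0.0720 by limma), and without *ob/ob* array 3 it was 0.73 (adjusted p = 0.0244). With any other array left out it did not pass (adjusted p = 0.105 to 0.173). *Cd163*, the macrophage receptor for haptoglobin bound to haemoglobin, did not pass (log2 fold change -0.23, adjusted p = 0.521 by limma), and *Hmox1*, which degrades haem, was lower (log2 fold change -0.88, adjusted p = 0.029 by limma). The *Hmox1* call was lost without *ob/ob/Fsp27-/-* array 1 or 2 or *ob/ob* array 2 (adjusted p = 0.0551 to 0.0947).

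*Serpina3n* encodes a secreted inhibitor of serine proteases. It read 11.98, 11.84 and 12.04 in *ob/ob/Fsp27-/-* arrays, against 11.56, 12.13 and 12.11 in *ob/ob* arrays. The *ob/ob/Fsp27-/-* arrays fell inside the *ob/ob* range, and the log2 fold change was 0.02 with a 95% interval of -0.36 to 0.40 (adjusted p = 0.938 by limma). Of 10 other Serpina3 genes listed, 2 had a probeset of their own, *Serpina3a* and *Serpina3b*, and neither passed. *Serpina3b* had an adjusted p = 0.0151 by limma with a log2 fold change of 0.41, under the size required. *Serpina3a* had an adjusted p = 0.192 by limma, and both genes lay below the median of all values in every array.

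*Lcn2* encodes lipocalin 2, which starves bacteria of iron by binding their siderophores and is secreted by adipocytes, epithelia and neutrophils. Its mean was the furthest above *ob/ob* of the 10 genes, with the widest spread among arrays, and it did not pass. It read 11.23, 10.99 and 10.41 in *ob/ob/Fsp27-/-* arrays, against 8.66, 10.30 and 10.45 in *ob/ob* arrays. *ob/ob/Fsp27-/-* array 3 lay just below *ob/ob* array 3, and *ob/ob* array 1 was far below every other array. The means were 10.87 ± 0.42 in *ob/ob/Fsp27-/-* and 9.81 ± 0.99 in *ob/ob* (SD, n = 3 each), a log2 fold change of 1.07 with a 95% interval of -0.04 to 2.18 (adjusted p = 0.140 by limma). Without *ob/ob* array 1 the fold change was 0.50 on the log2 scale. The *ob/ob/Fsp27-/-* array with the highest *Lcn2*, array 1, was also the highest of the 6 in the epithelial keratin *Krt8* (8.84, against at most 7.43 elsewhere) and in *Lrp2*, the endocytic lipocalin receptor megalin (8.58, against at most 6.98). Both genes were picked after their values were seen. The mean of the 12 mesothelial markers, *Krt8* among them, was 6.91, 7.09 and 6.36 in *ob/ob/Fsp27-/-* arrays, against 6.34, 7.07 and 6.61 in *ob/ob* arrays, so the list was not highest in that array. The epididymis marker *Adam7* was highest there as well (5.90, against at most 4.61 elsewhere). The mean of the 10 measured epididymis markers was 4.58, 4.47 and 4.31 in *ob/ob/Fsp27-/-* arrays, against 4.35, 4.28 and 4.34 in *ob/ob* arrays. Of the other epididymis markers, only *Lcn8* and *Lcn12* were highest in *ob/ob/Fsp27-/-* array 1. *Lcn5*, *Lcn9*, *Adam28*, *Spink11*, *Rnase10*, *Cst11* and *Pate4* were highest in other arrays. *Adam7* thus weighed on the list mean of that array. The part of either tissue in *Lcn2* was not tested. Without array 1 of both genotypes, a setting chosen after the data were seen, the *Lcn2* log2 fold change was 0.32 (adjusted p = 0.331 by limma). *Slc22a17*, a receptor for lipocalin 2, was higher in *ob/ob/Fsp27-/-* GWAT (log2 fold change 0.60, adjusted p = 0.0274 by limma). The *Slc22a17* call was lost without *ob/ob* array 1 (0.52, adjusted p = 0.0824), *ob/ob* array 2 (0.57, adjusted p = 0.0907), *ob/ob/Fsp27-/-* array 1 (0.45, adjusted p = 0.0546) or *ob/ob/Fsp27-/-* array 2 (0.62, adjusted p = 0.0734).

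*S100a8* rose in *ob/ob/Fsp27-/-* GWAT and *S100a9* did not pass. Their genes neighbour each other and their products act as a pair. The *S100a8* promoter (chr3:90668821-90669120, plus strand) is shown, with the same capitals, because *S100a8* is the one gene of the list that was higher. It held 1 C/EBP match, TTAGGAAA at -117.
S100a8: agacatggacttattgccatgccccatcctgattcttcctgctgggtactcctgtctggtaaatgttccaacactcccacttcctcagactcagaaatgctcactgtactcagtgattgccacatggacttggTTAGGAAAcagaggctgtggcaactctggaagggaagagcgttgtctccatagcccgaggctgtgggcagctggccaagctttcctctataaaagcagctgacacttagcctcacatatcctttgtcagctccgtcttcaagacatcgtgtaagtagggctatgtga
*S100a8* read 6.65, 7.17 and 6.89 in *ob/ob/Fsp27-/-* arrays, against 5.68, 6.33 and 6.20 in *ob/ob* arrays. The groups did not overlap, with *ob/ob* array 1 again the lowest. The means were 6.90 ± 0.26 in *ob/ob/Fsp27-/-* and 6.07 ± 0.34 in *ob/ob* (SD, n = 3 each), a 1.78-fold difference (log2 fold change 0.83, 95% interval 0.37 to 1.30, adjusted p = 0.0181 by limma). The call was lost without *ob/ob/Fsp27-/-* array 2 (log2 fold change 0.70, adjusted p = 0.0662) and without *ob/ob/Fsp27-/-* array 3 (0.84, adjusted p = 0.0525). *S100a9* read 5.46, 5.33 and 5.001 in *ob/ob/Fsp27-/-* arrays, against 5.19, 4.99 and 5.03 in *ob/ob* arrays. These overlapped at a signal below the median of the arrays, and the log2 fold change was 0.20 (95% interval -0.11 to 0.51, adjusted p = 0.319 by limma). Neutrophil markers were low throughout: 20 of 22 lay below the median of all values in every array, including *Ly6g*, *Cxcr2*, *Elane* and *Ngp*, and the list mean was 4.70 to 4.88 in *ob/ob/Fsp27-/-* arrays and 4.87 to 5.06 in *ob/ob* arrays. None of the 22 was higher by limma (3 at an unadjusted p under 0.05), and 1 was lower, *Clec4d*, a C-type lectin that macrophages express too (log2 fold change -3.81, adjusted p = 0.000794 by limma). *Clec4d* read 4.86, 4.94 and 4.67 in *ob/ob/Fsp27-/-* arrays, against 9.66, 8.51 and 7.75 in *ob/ob* arrays. This gene weighed on the list mean, so the lower mean is not a fall of the markers as a group. The list's median log2 fold change was 0.05.

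**Figure D3:**
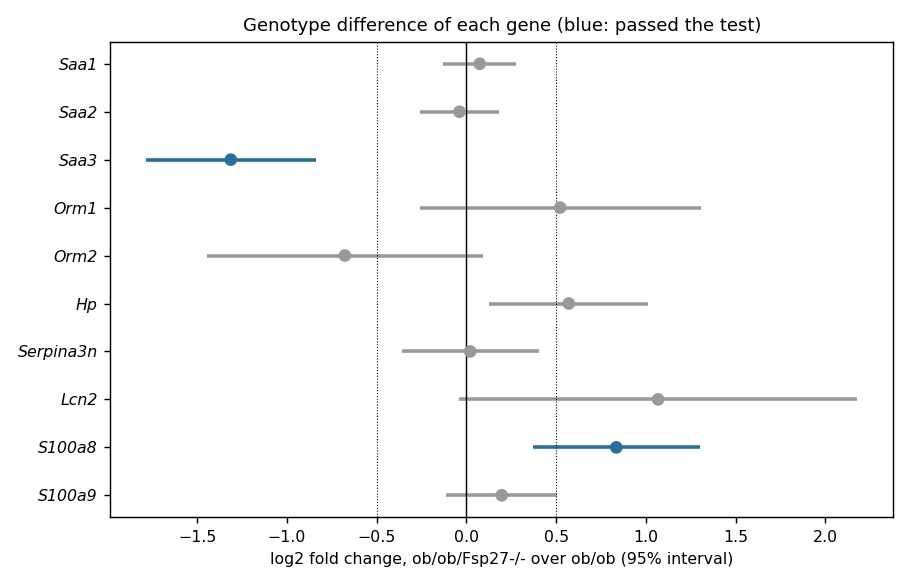
Log2 fold change of each of the 10 genes, ob/ob/Fsp27-/- over ob/ob, with its 95% interval from limma (n = 3 arrays each); blue marks the genes that passed and dotted lines the fold threshold of 0.5. Saa3 (-1.31) and S100a8 (0.83) passed, and the intervals of Lcn2, Orm1 and Orm2 are the widest.

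The spread around these means was mostly among the *ob/ob* arrays. The SD was larger in *ob/ob* than in *ob/ob/Fsp27-/-* GWAT for 9 of the 10 genes, *S100a9* being the exception, whereas it was larger for 45.2% of all genes. The median SD over the 10 genes was 0.119 in *ob/ob/Fsp27-/-* and 0.366 in *ob/ob*, and over all genes it was 0.120 in *ob/ob/Fsp27-/-* and 0.107 in *ob/ob*. *ob/ob* array 1 was the lowest *ob/ob* array for 8 of the 10 genes (34.3% of all genes). *ob/ob* array 3 exceeded *ob/ob* array 1 by more than 0.5 on the log2 scale for 7 of the 10 genes (*Lcn2* by 1.79, *Orm2* by 1.44, *Orm1* by 1.38, *Saa3* by 0.85, *Hp* by 0.75, *Serpina3n* by 0.54 and *S100a8* by 0.51), a gap found for 5.34% of all genes. The adipocyte markers had the same order, with *ob/ob* array 1 lowest for 13 of 14 and list means of 10.89, 11.35 and 11.60 in *ob/ob* arrays 1, 2 and 3. In *ob/ob/Fsp27-/-* arrays that mean was 12.00 to 12.05. 9 of the 14 adipocyte markers were higher in *ob/ob/Fsp27-/-* GWAT and none was lower, among them *Adipoq*, the hormone adiponectin (log2 fold change 1.20, adjusted p = 0.0109), and *Plin1*, the lipid droplet coat protein perilipin (0.86, adjusted p = 0.0182, both by limma). The *Plin1* call was lost without *ob/ob/Fsp27-/-* array 2 or 3 or *ob/ob* array 2 (adjusted p = 0.0516 to 0.0635). Of 13 markers of stromal progenitors, 7 were lower in *ob/ob/Fsp27-/-* GWAT and none was higher. The macrophage markers did not share the order of the adipocyte markers, since *ob/ob* array 1 was lowest for 5 of 19, against 34.3% of all genes. Their list mean ran in the reverse order by a small amount (10.10, 10.015 and 9.94 in *ob/ob* arrays 1, 2 and 3). The part of adipocyte content in the spread of the 10 genes was not tested.

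**Figure D4:**
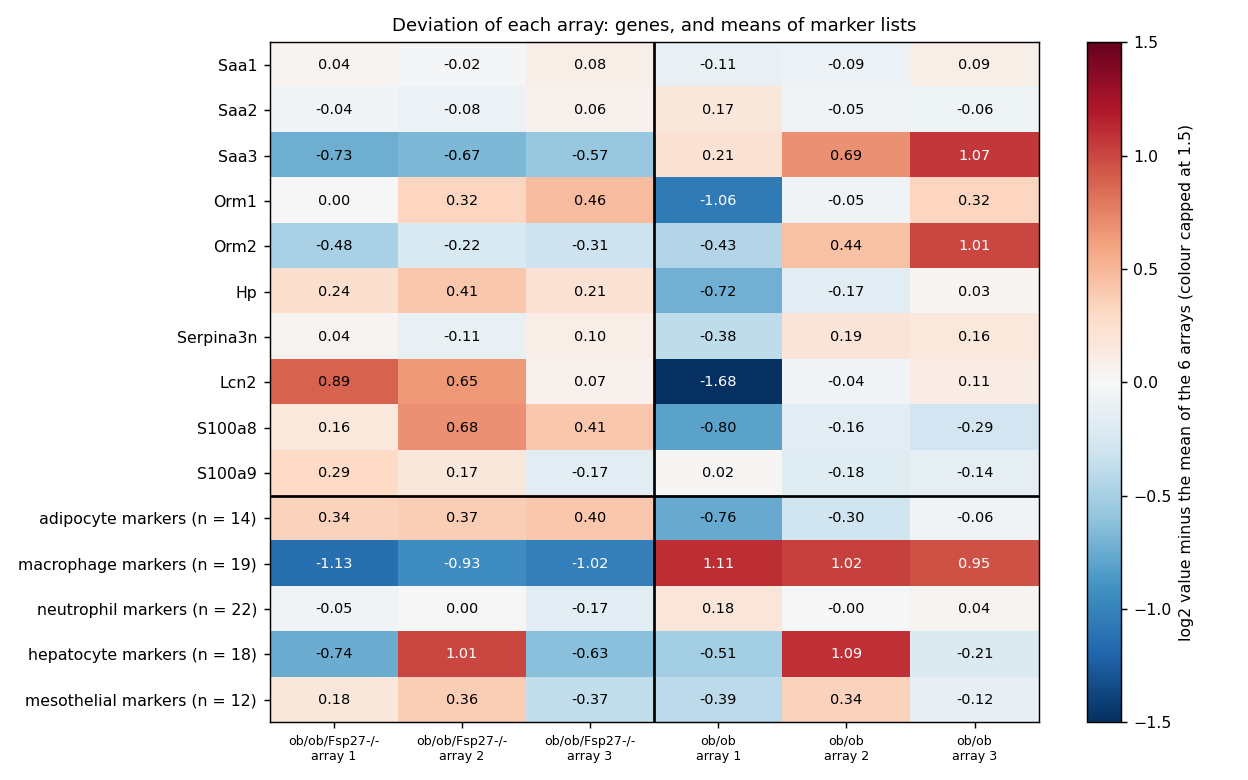
Deviation of each array from the mean of the 6 arrays (log2) for the 10 genes and for the means of 5 marker lists, with the 3 ob/ob/Fsp27-/- arrays to the left of the 3 ob/ob arrays; red is above and blue below the mean. ob/ob array 1 is low for Lcn2, Orm1, S100a8, Hp and the adipocyte markers, and array 2 of both genotypes is high for the hepatocyte markers.

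Array 2 of each genotype carried more signal of liver genes. All 18 measured hepatocyte markers were highest in array 2 in both genotypes, which held for 6.73% of all genes. *Alb*, serum albumin, read 7.93, 11.17 and 8.45 in *ob/ob/Fsp27-/-* arrays, against 9.004, 11.55 and 9.73 in *ob/ob* arrays. Since acute-phase genes are liver genes, the 10 genes were checked in those arrays: *Saa1* and *Saa2* stayed near the low end there (3.20 to 3.58), and array 2 was the highest in both genotypes for *S100a8* alone. Without array 2 of both genotypes, also chosen after the data were seen, *S100a8* kept a log2 fold change of 0.83 (adjusted p = 0.0783 by limma), and with 2 arrays left per genotype none of the 10 genes passed. Calls over all genes then numbered 908 higher and 1423 lower, compared with 1910 higher and 2158 lower with all arrays. Markers of mesothelium and of epididymis, which lie beside this depot, had no gene called of 12 and 10 measured, and none had an unadjusted p under 0.05 by limma. All 10 epididymis markers lay below the median of all values in all arrays. Among them *Adam7* read 5.90 in *ob/ob/Fsp27-/-* array 1 and 3.85 to 4.61 in the other arrays. A test of genotype does not pick out a single array.

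Of 27 other acute-phase genes measured, none was higher by limma (1 at an unadjusted p under 0.05) and 3 were lower in *ob/ob/Fsp27-/-* GWAT. These were *Il1rn*, the interleukin-1 receptor antagonist (log2 fold change -3.59, adjusted p = 0.000339), and the metal-binding metallothioneins *Mt2* (-1.19, adjusted p = 0.0013) and *Mt1* (-0.74, adjusted p = 0.00432, all by limma). The median log2 fold change of the list was -0.03, and the share that was lower is close to the 10.8% of all genes. *Orm3* was called higher under some of the settings run. In 14 of the 27, against 6.73% of all genes, array 2 was the highest in both genotypes, and the list mean was 6.28, 7.13 and 6.36 in *ob/ob/Fsp27-/-* arrays, against 6.44, 7.12 and 6.78 in *ob/ob* arrays. Without array 2 of both genotypes *Il1rn* and *Mt2* passed and *Mt1* did not (adjusted p = 0.0526 by limma). *Il1rn* read 6.34, 6.43 and 6.40 in *ob/ob/Fsp27-/-* arrays, against 10.57, 10.22 and 9.16 in *ob/ob* arrays. Here *ob/ob* array 1 was the highest of the *ob/ob* arrays, the reverse of its place for *Saa3*.

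Among the 15 other S100 genes, 1 was higher and 3 were lower, with a median of 0.06. Over all genes, 9.58% were higher and 10.8% lower. *S100a4*, a calcium-binding protein of fibroblasts and macrophages, read 6.02, 6.19 and 6.27 in *ob/ob/Fsp27-/-* arrays, against 9.38, 9.19 and 8.80 in *ob/ob* arrays (log2 fold change -2.96, adjusted p = 4.51e-05 by limma). *S100a6* (-1.97) and *S100a10* (-0.65) were lower as well, and *S100a16* was higher by 0.51. The *S100a16* call was lost without *ob/ob* array 1 (log2 fold change 0.42, adjusted p = 0.0346 by limma, under the size required) and without *ob/ob* array 2 (0.50, adjusted p = 0.0524), as well as without array 1 or array 2 of both genotypes. The *ob/ob/Fsp27-/-* and *ob/ob* arrays did not overlap for *S100a4*.

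Over all genes, 10.8% were lower and 9.58% higher in *ob/ob/Fsp27-/-* GWAT. Of 15 receptors and partners of the 10 proteins, 7 were lower and 2 were higher, and the list's median on the log2 scale was -0.23. Among the lower ones was the lipopolysaccharide receptor complex that also binds S100A8/A9, namely *Tlr4* (-1.24), its co-receptor *Ly96* (-1.07) and *Cd14* (-2.09), as well as *Tlr2* (-0.82) and the ATP-gated channel *P2rx7* (-1.39). *Cd14* and *Cd68* are on the macrophage list too. *Scarb1*, a lipoprotein receptor that binds serum amyloid A, was higher by 0.53 and missed the threshold without *ob/ob/Fsp27-/-* array 2 or 3 or *ob/ob* array 1 or 2 (*Scarb1* adjusted p = 0.0503 to 0.0631 by limma). The *Ly96* call was lost without *ob/ob/Fsp27-/-* array 1 or 2 or *ob/ob* array 2 or 3 (adjusted p = 0.0512 to 0.0757). Of 26 cytokines, cytokine receptors and transcription factors that act upstream, 5 were lower and 2 higher, with a median of -0.31. The shares of all genes beside these counts are the same 10.8% and 9.58%. The 5 lower genes were the receptor subunits *Il1rap* (-1.12), *Osmr* (-0.87) and *Il6ra* (-0.80), the adaptor *Myd88* (-0.83) and the NF-kB regulator *Nfkbiz* (-0.60). Other genes of the list did not pass, among them *Tnfrsf1a* (0.16, adjusted p = 0.404) and *Lifr* (-0.08, adjusted p = 0.666, both by limma). Some were lower with an adjusted p under 0.05 by limma and missed only the size required. These were *Il6st* (-0.45, adjusted p = 0.00359), *Jak1* (-0.38, adjusted p = 0.00923), *Jak2* (-0.46, adjusted p = 0.0292), *Rela* (-0.32, adjusted p = 0.0317) and *Osm* (-0.36, adjusted p = 0.0213), besides *Stat3* below. The transcription factors *Cebpa* (0.96), which is on the adipocyte list as well, and *Klf15* (0.81) were higher. Of the cytokines, *Il6* and *Il1b* gave little signal. *Il6* read 3.10 to 3.27 in *ob/ob/Fsp27-/-* arrays and 3.22 to 3.55 in *ob/ob* arrays. *Il1b* read 4.71 to 5.13 in *ob/ob/Fsp27-/-* arrays and 4.87 to 4.97 in *ob/ob* arrays. The signal of *Tnf* was higher, at 5.38 to 5.92 in *ob/ob/Fsp27-/-* arrays and 5.76 to 6.54 in *ob/ob* arrays. *Tnf* (log2 fold change -0.59, adjusted p = 0.0895), *Socs3* (-0.31, adjusted p = 0.14), *Cebpb* (0.03, adjusted p = 0.869) and *Cebpd* (-0.32, adjusted p = 0.167) did not pass by limma, and *Stat3* had an adjusted p = 0.0219 with a log2 fold change of -0.46, under the size required.

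**Figure D5:**
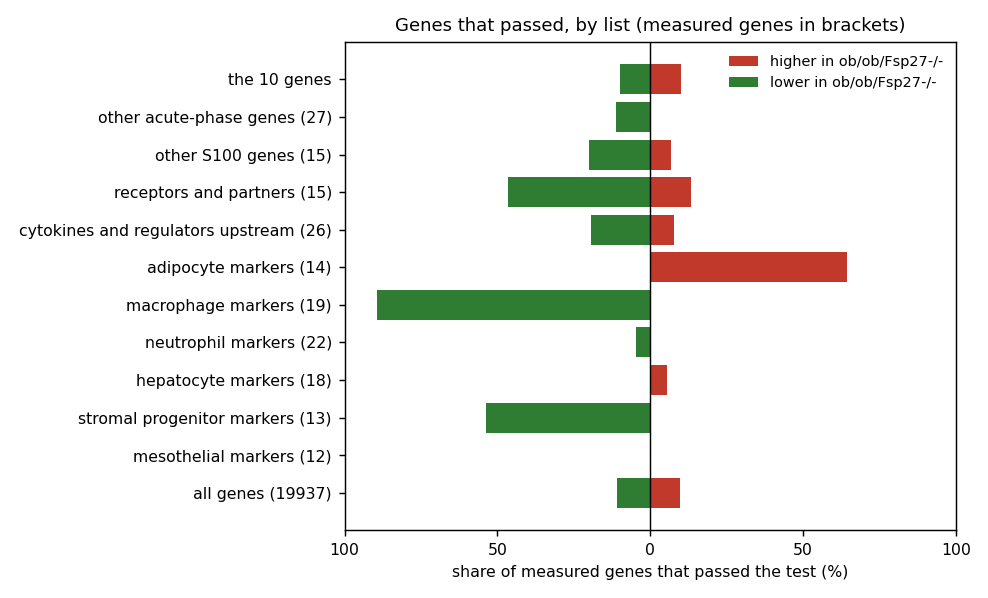
Share of the measured genes of each list (percent) that passed the test as higher (right of 0) or lower (left of 0) in ob/ob/Fsp27-/- than in ob/ob GWAT, with all 19937 genes as the last bar. The 10 genes have 1 call each way, the macrophage markers 17 of 19 lower and the adipocyte markers 9 of 14 higher.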

How the data were processed

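RNA of GWAT was amplified in 2 rounds, labelled and hybridised to 6 Affymetrix arrays (Mouse Gene 1.0 ST), with 3 for each genotype. The deposited log2 values were background-adjusted, quantile-normalised and summarised by RMA by the authors. Of tool versions and genome build nothing was stated (not given in the sources used here). Quantile normalisation gives every array nearly the same distribution, so a shift of all genes is removed, and amplification can distort low signals. The authors' filter on detection above background was not repeated.

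Of 34760 probesets, 21640 had 1 gene symbol, 1321 several and 11799 none; symbols came from the platform annotation and a gene was read from its one-symbol probeset of highest mean. limma 3.58.1 in R 4.3.3 fitted genotype without covariates, and p-values were adjusted by Benjamini-Hochberg over 22961 probesets. They measure the spread between 3 pools per genotype, and the number of arrays limits precision. Differences between related genes were tested by exact permutation. Promoters are from RefSeq (GRCm38.p6; 8 of 10 genes matched), and pairs were aligned with biopython 1.88. Figures used matplotlib 3.10.9. The fit was tested on simulated data.

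The 10 genes and the 12 gene lists were chosen with earlier results of these data known. Genes named are the 10, up to 6 called genes per direction of each list, and a set taken regardless of value. Of that set *Fpr2*, *C3*, *Serpina3k* and *Crisp1* had no one-symbol probeset and were not analysed here. 16 alternatives and 2 added later were run.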

Additional observations from a re-analysis of the deposited data

How the results depend on the processing

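The numbers of the 10 genes called, 1 higher and 1 lower, did not hold under several settings. With only probesets above the median tested, and with arrays centred on their medians, 2 were higher (*Hp* in addition), and at a log2 fold change of at least 1 none was. Leaving out 1 array at a time gave 0 to 2 higher and 1 to 2 lower. Among settings chosen after the data were seen, dropping array 2 of both genotypes left 0 higher and 0 lower, and dropping array 1 of both left 2 lower, *Orm2* in addition (log2 fold change -0.99, adjusted p = 0.0138 by limma). Changes of sign were confined, in the settings run, to values near 0. *Serpina3n* was -0.0636 with array weights, -0.16 to 0.12 with 1 array left out and -0.18 without array 1 of both genotypes. *Saa2* was -0.0802 to 0.0335 with 1 array left out and 0.0428 without array 1 of both. *Saa1* minus *Saa2* was -0.0093 without array 1 of both. The causes were not tested.

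Without a fold threshold, 2936 genes were higher and 3052 lower, and at a log2 fold change of at least 1, 652 were higher and 955 lower. Higher adipocyte markers numbered 4 to 9 with 1 array left out and 1 without array 2 of both genotypes, and higher receptors and partners 0 to 2. *Saa1*, *Saa2* and *S100a9* leave the test when probesets below the median are removed. No paired analysis was possible because the array numbers only name the samples and tie no array of one genotype to one of the other.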
